A study of Mus musculus with 8 samples.

Results

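The AMPA and NMDA receptor subunits are the proteins that build the main fast glutamate receptors of the brain, and 10 of their genes were followed here across the cell types of the mouse prefrontal cortex (PFC) and striatum. The members were chosen by name as gene families, not by any measured value: 4 AMPA receptor genes (*Gria1* to *Gria4*, for GluA1 to GluA4) and 6 NMDA receptor genes (*Grin1* for GluN1, *Grin2a* to *Grin2d* for GluN2A to GluN2D, and *Grin3a* for GluN3A), 10 of the 31053 genes counted. The data were single-cell RNA sequencing of 8 libraries, 2 from wild-type (WT) and 2 from *Setd1a*+/- mice for each tissue. The mice were male, of a line whose founders were made in zygotes of a hybrid strain and backcrossed to C57BL/6N. By the labels they were 8 to 10 weeks old (the methods of the study give an older age), and the tissue of 2 mice was pooled in each library. *Setd1a*+/- mice carried 1 CRISPR-Cas9-made frameshift allele of *Setd1a*, a histone H3 lysine 4 methyltransferase, in all their cells, and all descended from 1 selected mutation, while their WT littermates carried none. For the striatal libraries the labels give nucleus accumbens and the study gives striatum.

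A working AMPA receptor is a tetramer of GluA subunits. It opens within a millisecond of glutamate release, and receptors that hold GluA2 pass little calcium while those without it pass calcium freely. An NMDA receptor needs GluN1 together with GluN2 or GluN3 subunits. The form made of GluN1 and GluN2 opens only when the cell is already depolarised, and lets in the calcium that drives synaptic plasticity. GluN2A and GluN2B set how long the current of a receptor lasts, and GluN3A lowers its calcium flow. Oligodendrocyte precursor cells (OPCs) and some astrocytes also carry glutamate receptors, through which they sense neuronal activity.

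The genes lie on the GRCm38 build as follows. *Gria1* spans chr11:57011387-57330244, *Gria2* chr3:80681450-80802835, *Gria3* chrX:41400854-41678601 and *Gria4* chr9:4417896-4796234. *Grin1* spans chr2:25291181-25319187, *Grin2a* chr16:9567898-9995560, *Grin2b* chr6:135713233-136173511, *Grin2c* chr11:115249169-115267243, *Grin2d* chr7:45831883-45878378 and *Grin3a* chr4:49661611-49845744. The mouse model alters an enzyme that methylates histones at CG-rich gene starts, so the 250 bases before the start of 3 members with contrasting patterns are shown, read from RefSeq on GRCm38.p6, minus strand for each, with every CG dinucleotide in capitals. They are the start of *Gria2* (chr3:80802836-80803085), found in neurons and glia, of *Grin1* (chr2:25319188-25319437), found mostly in neurons, and of *Grin2c* (chr11:115267244-115267493), found mostly in astrocytes.
Gria2: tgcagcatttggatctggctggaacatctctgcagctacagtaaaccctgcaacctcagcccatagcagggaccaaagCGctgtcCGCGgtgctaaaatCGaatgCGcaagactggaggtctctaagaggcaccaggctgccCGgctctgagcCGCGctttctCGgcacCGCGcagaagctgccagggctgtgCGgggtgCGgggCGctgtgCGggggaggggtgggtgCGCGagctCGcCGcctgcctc
Grin1: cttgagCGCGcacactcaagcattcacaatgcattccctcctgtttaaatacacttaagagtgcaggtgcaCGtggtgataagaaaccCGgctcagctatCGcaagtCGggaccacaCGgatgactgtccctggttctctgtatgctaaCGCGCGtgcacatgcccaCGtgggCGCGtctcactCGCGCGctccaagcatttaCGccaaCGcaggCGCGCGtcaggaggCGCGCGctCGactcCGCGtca
Grin2c: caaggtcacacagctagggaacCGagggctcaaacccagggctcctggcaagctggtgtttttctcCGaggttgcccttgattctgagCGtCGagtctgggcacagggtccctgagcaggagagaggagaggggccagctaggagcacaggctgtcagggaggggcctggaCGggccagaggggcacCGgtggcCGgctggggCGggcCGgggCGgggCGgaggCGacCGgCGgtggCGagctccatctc
The CG motif (read the same on both strands, each occurrence counted once) occurred 19 times before *Gria2*, 27 times before *Grin1* and 15 times before *Grin2c*. Over 27025 mouse promoters of the same length the median was 6, and *Grin1* held more than 91.8% of them. Promoters of 5 of the 10 members were matched in the RefSeq table.

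Levels are given in CPM, a relative count: the unique molecular identifiers (UMIs, 1 per captured RNA molecule) of a gene added up across all cells of 1 type in 1 library, scaled to 1000000 UMIs of the same cells. A level is therefore a share of the RNA captured, and a change in the total RNA of a cell cannot be seen in it. The authors annotated 8997 PFC cells in 8 types and 14690 striatal cells in 10 types: excitatory neurons (EN), inhibitory neurons (IN), medium spiny neurons with D1 or D2 dopamine receptors (D1 MSN and D2 MSN), neuroblasts (NB), astrocytes (Astro), OPCs, newly formed oligodendrocytes (NFO), oligodendrocytes (Oligo), microglia (Micro) and endothelial cells (Endo). PFC EN were split into 7 subtypes of superficial (SL) or deep layer (DL), named by a marker gene. DL-Pou3f1 held 7, 35, 12 and 8 cells in WT replicates 1 and 2 and *Setd1a*+/- replicates 1 and 2, so its levels are imprecise. Libraries held 5999666 to 13521114 UMIs in 1508 to 4361 annotated cells, and pairs of libraries shared at most 0.877% of their cell barcodes. Defining markers were highest in their own type for 24 of 24 PFC and 28 of 30 striatal checks, the exceptions being *Gad2* and *Slc32a1*, which were higher in D1 MSN than in striatal IN. For subtypes 5 of 7 markers were highest in their own subtype, the exceptions being *Cux2*, highest in SL-Myh7, and *Etv1*, highest in DL-Tshz2. *Setd1a* itself was measured at 8.45 and 11.2 CPM in WT and 5.59 and 9.33 in *Setd1a*+/- PFC, and at 13.4 and 15.2 in WT and 9.16 and 12.5 in *Setd1a*+/- striatum. The reads come from the 3′ end of the transcript and not from the frameshift, so this level does not check the allele.

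**Figure D1:**
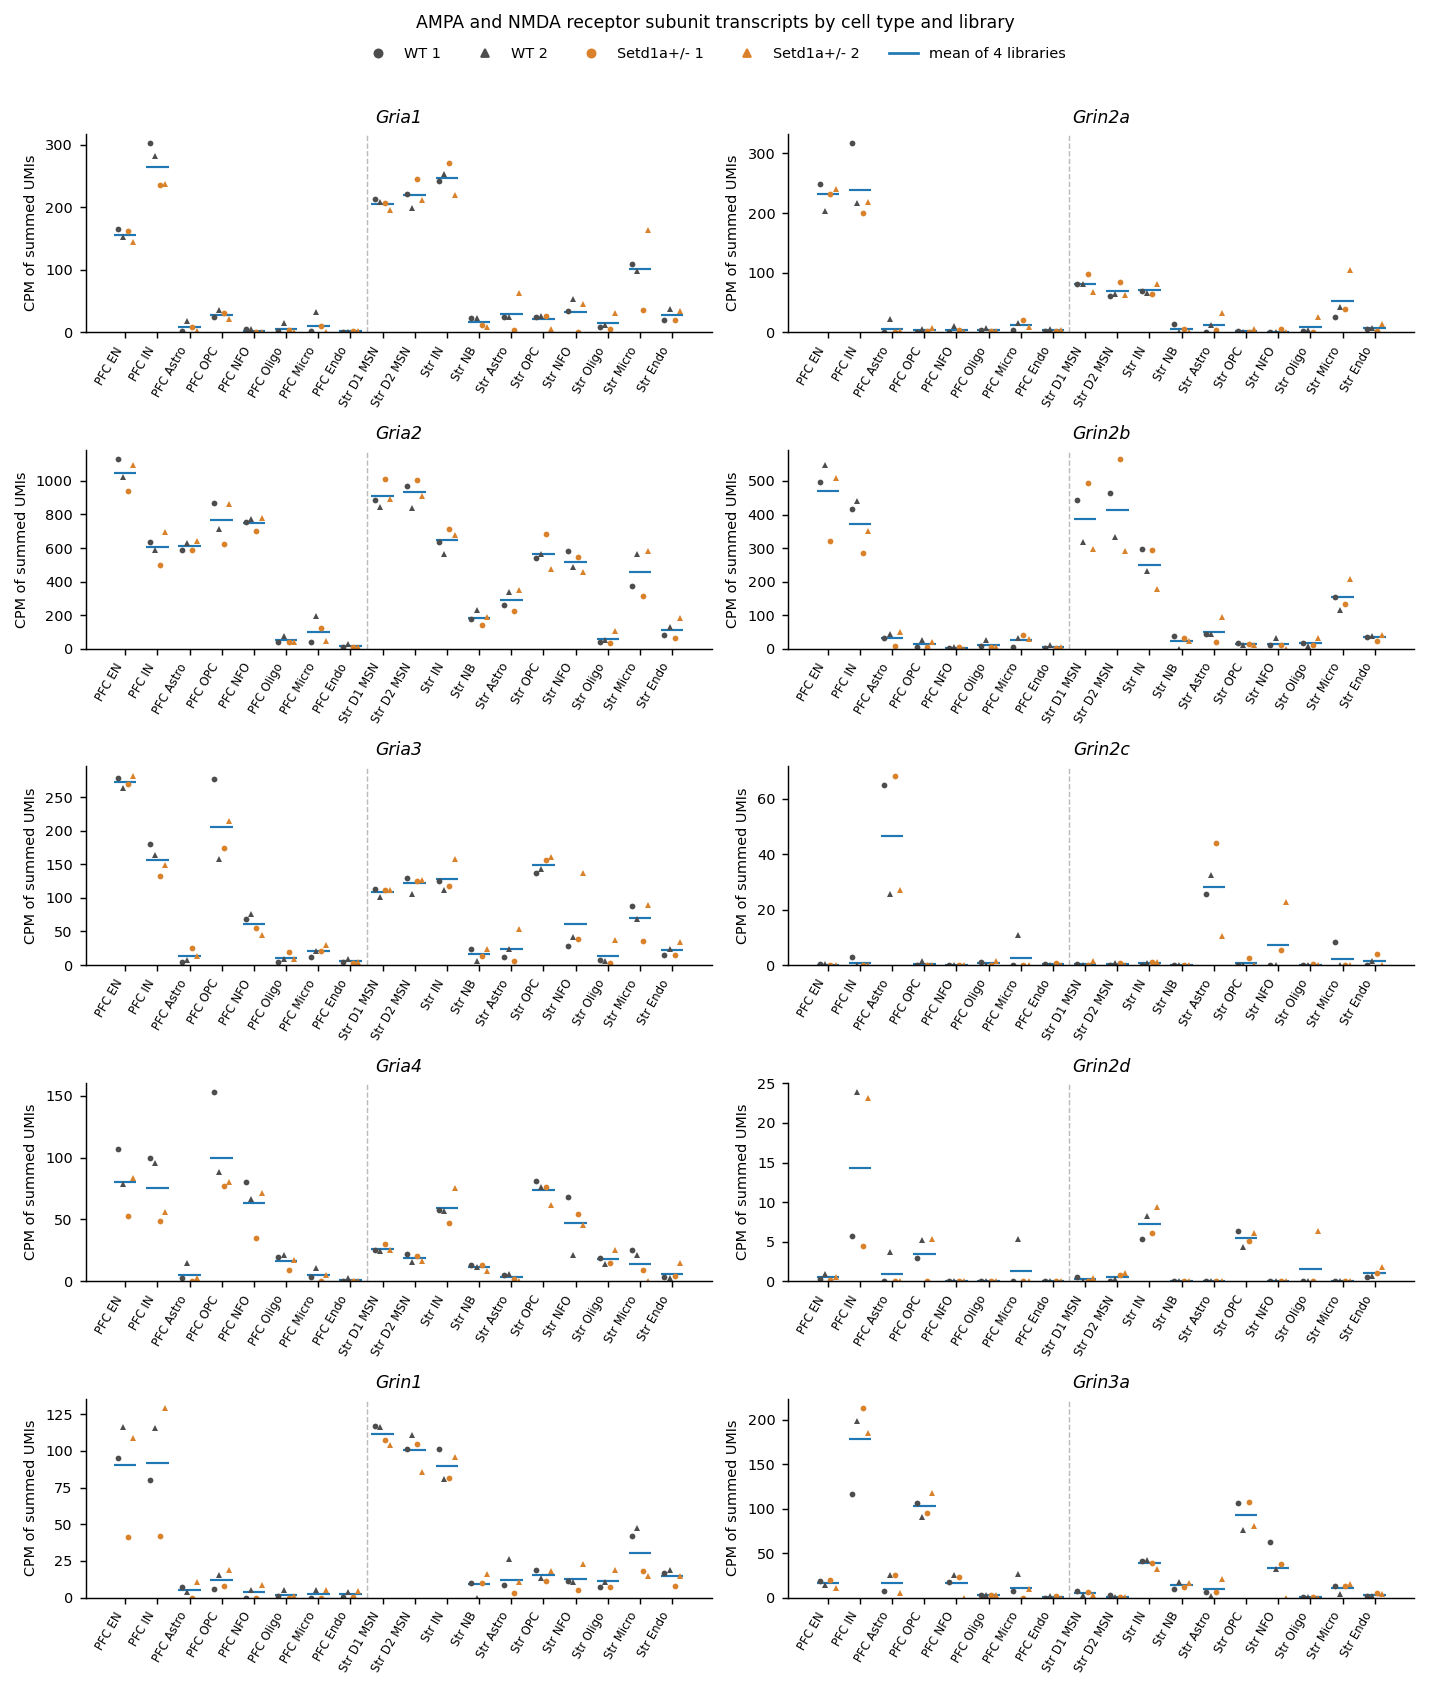
Level of each of the 10 subunit genes (y axis, CPM) in each of the 18 cell types of PFC and striatum (x axis), with 1 point per library. *Gria2* is high in neurons of both tissues and in OPC, NFO and astrocytes of the PFC, *Grin2c* in astrocytes, and *Grin3a* in IN and OPC.

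*Gria2*, whose protein makes AMPA receptors nearly impermeable to calcium, was the AMPA gene with the broadest pattern, high in neurons and, in the PFC, in 3 glial types. In PFC EN it stood at 1128, 1022, 942 and 1094 CPM in WT replicates 1 and 2 and *Setd1a*+/- replicates 1 and 2, and every EN library was above every library of any other PFC type. PFC OPC (766 ± 119, SD, n = 4 here and below), NFO (752 ± 34.8), Astro (614 ± 27.1) and IN (605 ± 83.8) followed. Ranges of OPC and NFO overlapped, as did those of Astro and IN, whereas the NFO and Astro ranges did not. PFC Micro (101 ± 72.0), Oligo (51.2 ± 17.6) and Endo (15.1 ± 8.55) were lowest. In the striatum D2 MSN (931 ± 72.3) and D1 MSN (908 ± 70.7) overlapped at the top and lay clear of IN (647 ± 65.0). From there down to Oligo (59.1 ± 33.2) each type overlapped with the next, with Micro at 459 ± 134 and Astro at 293 ± 60.7. Striatal droplets with at most 100 UMIs, which hold free RNA, were at 462 to 526 CPM. That was above every Astro library and overlapped the ranges of OPC, NFO and Micro. The part of free RNA in the glial levels was not tested. Across subtypes of EN the mean ran from 1376 CPM in DL-Pou3f1 to 928 in SL-Cux2.

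*Gria1*, for the GluA1 subunit that is inserted during plasticity, was high in EN, MSN and IN, with its highest mean in IN of both tissues. In PFC IN the WT libraries read 303 and 283 CPM, the *Setd1a*+/- libraries 235 and 238. EN read 166 and 153 (WT) and 162 and 145 (*Setd1a*+/-). All IN libraries were above all EN libraries. OPC held 28.8 ± 6.65, and the other PFC types means of 1.81 to 11.1. Striatal IN (247 ± 21.1), D2 MSN (219 ± 20.02) and D1 MSN (206 ± 7.61) overlapped with their neighbours and were above all other types, of which Micro was next at 102 ± 52.7. Droplets with at most 100 UMIs held 71.9 to 92.7 CPM in the PFC and 151 to 216 in the striatum, the latter overlapping D1 and D2 MSN. Among EN subtypes DL-Pou3f1 (229 ± 80.5) and DL-Nnat (194 ± 12.6) had the highest means and DL-Tshz2 (107 ± 27.6) the lowest. DL-Pou3f1 ran from 168 to 347 CPM, on 7 to 35 cells per library, and overlapped DL-Nnat.

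*Gria3*, for GluA3, reached 273 ± 8.32 CPM in PFC EN, with OPC (206 ± 53.3) overlapping it and IN (156 ± 20.03) overlapping OPC. NFO (61.1 ± 14.1) stood apart from the types on either side, and the other 4 types had means of 5.47 to 20.9. In the striatum OPC (149 ± 11.1), IN (128 ± 20.7), D2 MSN (122 ± 10.8) and D1 MSN (109 ± 5.87) formed an overlapping series. Droplets with at most 100 UMIs held 135 to 184 CPM in the PFC, overlapping OPC and IN and below every EN library. In the striatum they held 92.9 to 141 CPM, overlapping OPC, IN, D2 MSN and D1 MSN. EN subtypes spread over a wide range, from DL-Pou3f1 (496 ± 99.8), DL-Foxp2 (400 ± 51.5) and SL-Myh7 (385 ± 55.9) through DL-Etv1 (260 ± 6.72) and DL-Nnat (255 ± 43.6) to SL-Cux2 (167 ± 16.0) and DL-Tshz2 (113 ± 15.4). Ranges did not overlap between SL-Myh7 and DL-Etv1, between DL-Nnat and SL-Cux2, or between SL-Cux2 and DL-Tshz2.

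*Gria4*, for GluA4, the subunit of fast AMPA receptors, had its highest mean in OPC of both tissues. PFC OPC held 153, 88.7, 77.0 and 80.3 CPM, 1 library (WT replicate 1) being far above the rest. EN (80.5 ± 21.9), IN (75.2 ± 26.4) and NFO (63.4 ± 19.7) overlapped with it in turn, and Oligo fell to 16.7 ± 5.41. Striatal OPC held 73.7 ± 8.37, IN 59.1 ± 11.9 and NFO 47.5 ± 19.8, against 26.1 ± 2.61 in D1 MSN and 18.7 ± 2.99 in D2 MSN. EN subtypes ran the other way from *Gria3*, with SL-Cux2 (131 ± 38.4) highest and DL-Foxp2 (32.4 ± 9.89) and DL-Pou3f1 (28.2 ± 19.7) lowest.

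Within a cell type the 4 AMPA genes can be set against each other as shares of their summed UMIs, and the shares compared between types. Capture of the 3′ end differs between genes, so a share is not a subunit stoichiometry. *Gria2* gave 67.2% ± 0.883 of AMPA UMIs in PFC EN and 54.9% ± 4.30 in PFC IN, with no overlap between libraries. Astrocytes held the largest share of *Gria2*, 96.0% ± 2.10 in the PFC (94.0 to 98.4% in the 4 libraries) and 85.4% ± 7.94 in the striatum. OPC held 69.8% ± 3.36 and 69.7% ± 2.06 in the 2 tissues, and D1 and D2 MSN 72.6% ± 1.28 and 72.1% ± 0.217. IN of both tissues had the largest *Gria1* share of the types with at least 100 AMPA UMIs, 24.1% ± 2.19 in the PFC and 23.0% ± 2.62 in the striatum, against 10.1% ± 0.967 in EN. *Gria4* gave the largest share in Oligo, 20.6% ± 7.63 in the PFC and 19.7% ± 6.31 in the striatum, on 324 and 413 AMPA UMIs.

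**Figure D2:**
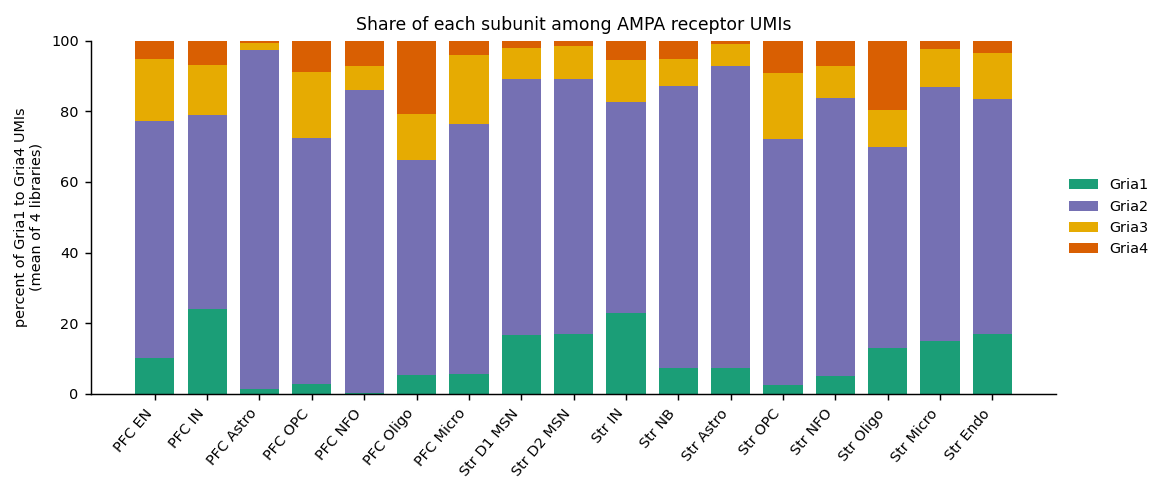
Stacked bars of the mean percent (y axis) that *Gria1*, *Gria2*, *Gria3* and *Gria4* took of their summed UMIs in each cell type (x axis), over the 4 libraries of a tissue, for types with at least 100 AMPA UMIs. *Gria2* takes 96.0% in PFC astrocytes and 54.9% in PFC IN.

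*Grin1*, for the obligatory GluN1 subunit, was high in EN, IN and MSN and low elsewhere, with NB lowest of the striatal types (mean 9.13 CPM). PFC IN (91.7 ± 39.0) and EN (90.3 ± 33.8) overlapped, and the next type, OPC, held 12.1 ± 6.10. Both libraries of replicate 1 were lower than both of replicate 2: in EN replicates 1 and 2 read 95.1 and 116 CPM for WT and 41.3 and 109 for *Setd1a*+/-, and in IN 80.0 and 116 for WT and 42.2 and 129 for *Setd1a*+/-. *Setd1a*+/- replicate 1 was the lowest library in both. In droplets with at most 100 UMIs *Grin1* was at 25.6 and 113 CPM in WT replicates 1 and 2 and at 16.3 and 130 in *Setd1a*+/- replicates 1 and 2, low in both libraries of replicate 1. In EN of *Setd1a*+/- replicate 1, 241 of 11665 genes (2.07%) were under 0.5 of the lowest other library, against 22 to 89 genes for the other 3 libraries. In IN it was 161 of 5915 genes, close to the 138 of *Setd1a*+/- replicate 2, and 51 and 70 in the WT libraries. Striatal D1 MSN (111 ± 6.44), D2 MSN (101 ± 10.6) and IN (89.9 ± 10.6) overlapped and lay above the other types. Striatal droplets with at most 100 UMIs held 145 to 194 CPM, above every striatal cell type library, and the part of free RNA in the levels of *Grin1* was not tested. A transcript on the opposite strand, *Grin1os*, had 3 UMIs in PFC cells and 5 in striatal cells, and whether strand was used in counting is not given in the sources used here.

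*Grin2a* and *Grin2b*, for the 2 main GluN2 subunits of the forebrain, also had their highest means in neurons. *Grin2b* was at 469 ± 101 CPM in PFC EN, 373 ± 70.4 in IN and at most 33.2 in the other PFC types. In the striatum it was at 413 ± 125 in D2 MSN, 388 ± 95.5 in D1 MSN and 251 ± 57.6 in IN. MSN libraries split by replicate number, not by genotype: D1 MSN held 444 and 493 CPM in the WT and *Setd1a*+/- libraries of replicate 1 and 317 and 298 in those of replicate 2, and D2 MSN held 464 and 564 against 332 and 291. *Grin2a* was at 238 ± 53.4 in PFC IN and 232 ± 19.7 in EN, with overlapping ranges. In striatal D1 MSN (81.9 ± 12.2), IN (70.5 ± 7.35) and D2 MSN (68.8 ± 11.02) it was lower than in any PFC neuron library, for which the lowest value was 199.7 CPM. Striatal Micro held *Grin2a* at 25.2 to 105 CPM, overlapping D1 MSN, D2 MSN and IN, and *Grin2b* at 116 to 209 CPM, overlapping IN. Of the UMIs of the 2 genes together, *Grin2a* gave 33.6% ± 6.16 in PFC EN and 39.0% ± 4.43 in PFC IN, and 17.7% ± 2.20 in D1 MSN, 14.8% ± 2.81 in D2 MSN and 22.6% ± 6.03 in striatal IN.

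*Grin2c*, for a GluN2 subunit best known from cerebellum and glia, was an astrocyte gene in both tissues. PFC Astro libraries held 65.2 and 25.7 CPM in WT and 68.4 and 27.1 in *Setd1a*+/- mice, high in replicate 1 and low in replicate 2, and the other PFC types had means of 0 to 2.70. Striatal Astro held 28.2 ± 13.9, and NFO was next at 7.10 ± 10.9. *Grin2d*, for a GluN2 subunit of interneurons, was the scarcest member. It had its highest mean in IN of both tissues (14.3 ± 10.7 in the PFC and 7.28 ± 1.89 in the striatum), followed by OPC (3.39 ± 2.51 and 5.51 ± 0.918), with overlapping ranges in both tissues.

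*Grin3a*, for GluN3A, was highest in IN and OPC. In the PFC, IN held 117 and 199 CPM in WT and 213 and 185 in *Setd1a*+/- mice, OPC 103 ± 12.1, and EN 15.9 ± 4.04. The IN and OPC ranges overlapped, with all OPC libraries above all libraries of the 6 other types. In the striatum the order was reversed: OPC held 92.6 ± 17.0, above every library of IN (38.8 ± 4.62), and MSN held 5.04 ± 1.964 (D1) and 1.24 ± 0.857 (D2). Among EN subtypes DL-Foxp2 was lowest, with 1.63 ± 1.64. Its highest library, at 3.89, overlapped with the lowest DL-Nnat library, at 3.60, and with no library of the other subtypes.

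**Figure D3:**
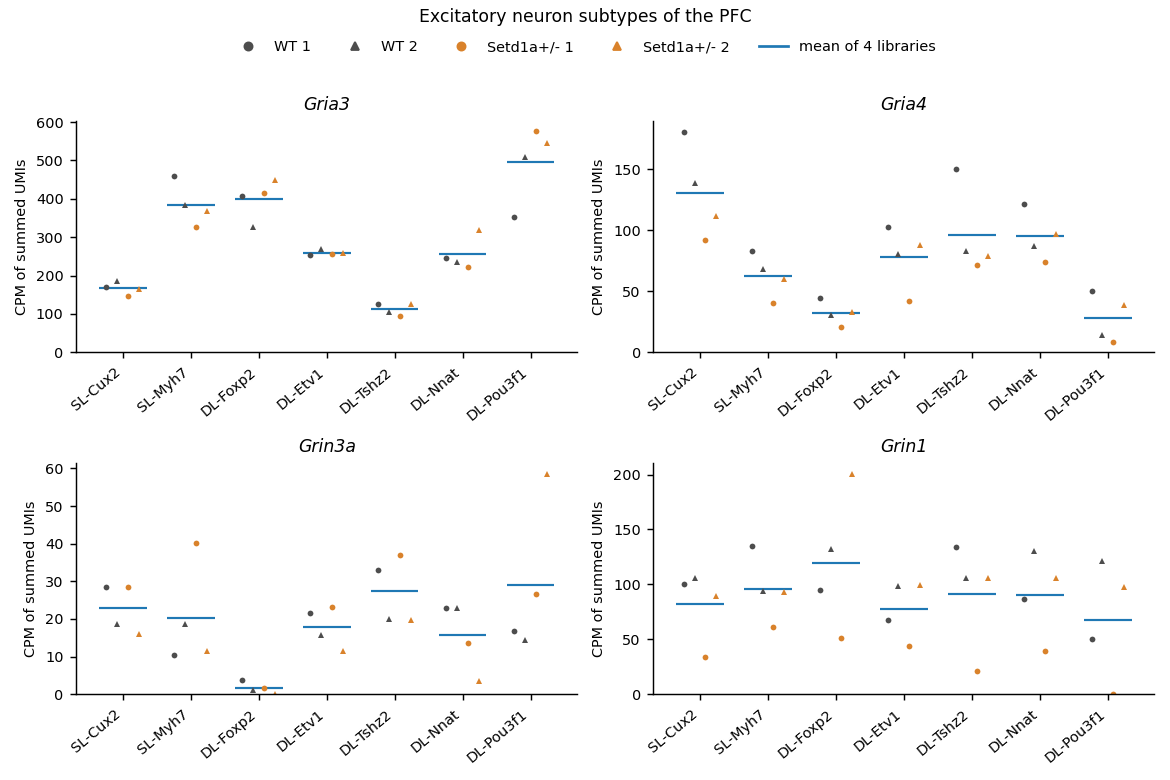
Levels (y axis, CPM) of *Gria3*, *Gria4*, *Grin3a* and *Grin1* in the 7 PFC EN subtypes (x axis), with 1 point per library. *Gria3* is high and *Gria4* and *Grin3a* are low in DL-Foxp2, and *Setd1a*+/- replicate 1 is the lowest *Grin1* library in every subtype.

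The share of cells with at least 1 UMI depends on depth, so it is given before and after thinning each cell to 1000 UMIs. It did not always follow the level: *Gria1* was found in 57.8% of PFC EN (13.8% thinned) and 57.7% of IN (19.8% thinned). *Grin2a* was found in 67.6% of EN (19.0% thinned) and 49.7% of IN (21.1% thinned). *Gria2* was found in 97.7% of PFC EN (64.1% thinned; median 6546 UMIs per cell) and in 3.78% of PFC Endo (1.47% thinned; median 2368 UMIs), cells that should lack it. *Grin2c* was found in 8.48% of PFC Astro (4.33% thinned) and 0.108% of EN (0% thinned). *Grin3a* was found in 37.2% of PFC IN (15.1% thinned), 15.9% of OPC (8.90% thinned) and 0.192% of Endo (0% thinned). Striatal Micro were unlike PFC Micro: *Gria2* was found in 42.4% of the former (22.5% thinned) and 9.34% of the latter (6.02% thinned), and *Grin2b* in 24.0% and 2.49%. Striatal Micro held *Grin2b* at 154 ± 40.4 CPM and PFC Micro at 26.9 ± 15.1. All 4 neuronal markers were higher in striatal than in PFC Micro, *Meg3* at 4295 against 400 CPM, *Snap25* at 882 against 115, *Syt1* at 305 against 80.9 and *Rbfox3* at 78.5 against 6.61. Their part in the Micro values was not tested.

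Over the 18 cell types, the genes of most similar pattern were ranked by Pearson's r of mean log2(CPM + 10) among 11304 genes, as a description without a test. The types share libraries and differ in depth. *Grin1* was closest to *Mir124a-1hg* (r = 0.99), *Rbfox1* (0.988) and *Dmtn* (0.985), and among the genes closest to *Gria1* were *Meg3* (0.981) and *Snhg11* (0.9795). *Grin2a* was closest to *A830018L16Rik* (0.981), *Syt1* (0.973) and *Dync1i1* (0.971), and *Grin2b* to *Slc12a5* (0.977), *Ensa* (0.972) and *Dlgap2* (0.971). *Gria2* was closest to *Map2* (0.932), *Ppp2r2b* (0.927) and *Shisa9* (0.922), the last an AMPA receptor auxiliary subunit. *Gria3* was closest to *Dcaf12l1* (0.964), *Slitrk5* (0.957) and *Slitrk3* (0.956), and *Gria4* to *1700025G04Rik* (0.963), *Lrrtm2* (0.948) and *Lrrc4* (0.933). *Grin2c* was closest to *Gm20383* (0.977), *Eva1a* (0.969) and *Etnppl* (0.967), and *Grin3a* to *Nxph1* (0.934), *Elfn1* (0.926) and *Grik1* (0.887). *Grin2d* did not reach 20 CPM in any type and was not ranked. Between members, *Gria1* and *Grin1* were the closest pair (r = 0.977).

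Cell types were compared with the quasi-likelihood test of edgeR on UMIs summed per library, with the library as a block where both types came from the same libraries. A gene was called at a Benjamini-Hochberg false discovery rate (FDR, over all genes tested) under 0.05 and a fold change above 1.5. The authors grouped the cells by expression of the same genes, so the test measures how well a difference repeats over libraries. A member can pass the filter on low counts through the type where it is high, so the counts below describe the members tested and not the whole family. Values below are log2 fold changes, first named type minus second, with the SE of the fit.

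In PFC IN against EN, 2 of 8 members tested were called higher and 2 lower, where 11.2% of 10354 genes were called higher and 14.4% lower. *Grin3a* was higher in IN by 3.52 ± 0.16 (11.5-fold, FDR = 8.86e-26) and *Gria1* by 0.78 ± 0.10 (1.71-fold, FDR = 2.87e-09). *Gria2* (-0.78 ± 0.07, FDR = 4.01e-13) and *Gria3* (-0.79 ± 0.10, FDR = 9.9e-09) were lower. All 4 held in 4 of 4 libraries without overlap of ranges. With cells thinned to 1000 UMIs the *Gria1* difference was 0.53 ± 0.21 and missed the threshold (FDR = 0.0572). *Grin2b* differed by -0.30 ± 0.08 (FDR = 0.00335), under the fold threshold, and *Gria4* (-0.04 ± 0.15), *Grin1* (0.03 ± 0.14) and *Grin2a* (0.05 ± 0.10) were within 1 SE of zero.

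DL-Foxp2 and SL-Cux2, deep and superficial layer EN, differed in 3 of 8 members: 1 was called higher in DL-Foxp2 (8.9% of 8606 genes) and 2 lower (10.4%). *Gria3* was 407, 328, 415 and 449 CPM in DL-Foxp2 and 171, 186, 147 and 165 in SL-Cux2 (1.23 ± 0.10, FDR = 2.26e-11). *Gria4* was 44.7, 30.9, 20.7 and 33.4 CPM against 181, 138, 92.0 and 111 (-2.05 ± 0.14, FDR = 2.94e-13). *Grin3a* was 3.89, 1.05, 1.59 and 0 CPM against 28.4, 18.6, 28.6 and 16.1 (-3.65 ± 0.39, FDR = 4.77e-09). On so few UMIs in DL-Foxp2 it passed the filter through SL-Cux2, and the size of this difference is imprecise. None of these ranges overlapped. *Gria1* (0.39 ± 0.11), *Gria2* (0.37 ± 0.07) and *Grin1* (0.48 ± 0.15) also passed the FDR but not the fold threshold, *Grin1* being called without PFC WT replicate 1 (0.64, FDR = 0.00657), and *Grin2a* and *Grin2b* differed by -0.19 ± 0.10 and 0.04 ± 0.08.

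OPC against Oligo compared the precursor with the mature cell. The members tested were 5 in the PFC, all called higher in OPC, and 7 in the striatum, of which 5 were called higher. Of these *Gria1*, *Gria3* and *Grin3a* had 19, 37 and 11 UMIs in PFC Oligo against 69, 474 and 233 in OPC, while *Grin1*, *Grin2a*, *Grin2b*, *Grin2c* and *Grin2d*, with 1 to 32 UMIs in PFC OPC, were not tested there. Over all genes tested, 25.8% and 28.5% were called higher and 24.2% and 21.9% lower in the 2 tissues. *Gria2* was higher by 3.37 ± 0.15 in the PFC and 3.22 ± 0.15 in the striatum, *Gria3* by 3.93 ± 0.25 and 3.99 ± 0.23, and *Gria4* by 2.07 ± 0.20 and 1.74 ± 0.19. *Gria1* was higher by 1.93 ± 0.40 in the PFC (FDR = 0.000278). In the striatum its difference was 0.86 ± 0.33 (FDR = 0.0253), carried by 3 of 4 libraries: *Setd1a*+/- replicate 2 went the other way, at 6.17 CPM in OPC and 31.5 in Oligo. Without WT replicate 1 or *Setd1a*+/- replicate 1 it was 0.85 and 0.48 and no longer called (FDR = 0.0811 and 0.336), nor was it called under DESeq2 (0.54, FDR = 0.450), without the filter (0.65, FDR = 0.0691) or with cells thinned (0.85, FDR = 0.0532). *Grin3a* was higher by 4.60 ± 0.26 in the PFC, 91.3 to 118 CPM in OPC against 2.46 to 2.90 in Oligo. In striatal Oligo only 4 *Grin3a* UMIs were counted against 233 in OPC, a ratio of CPM of 134 with a counting interval of 51.7 to 497. *Grin1* (0.25 ± 0.35) and *Grin2b* (-0.41 ± 0.31) were not called in the striatum. *Meg3*, the 1 called of 3 neuronal markers tested in each tissue, was also higher in OPC (1.88 ± 0.18 in the PFC and 1.25 ± 0.16 in the striatum). Its part in the member values was not tested.

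Astro against OPC showed lower *Gria3*, *Gria4* and *Grin3a* in astrocytes of both tissues. In the PFC 3 of 5 members were called lower (21.5% of 5699 genes) and 1 higher (21.2%). In the striatum 4 of 6 were called lower (20.9% of 7571 genes) and 1 higher (21.1%). *Gria3* gave -3.93 ± 0.29 and -2.99 ± 0.28 in PFC and striatum, *Gria4* -3.87 ± 0.42 and -3.95 ± 0.36, and *Grin3a* -2.53 ± 0.34 and -3.64 ± 0.32. Their means in Astro were 12.8, 4.95 and 16.0 CPM in the PFC and 24.1, 3.38 and 9.23 in the striatum. On so few UMIs they passed the filter through OPC, and the size of these differences is imprecise. *Gria2* was not called in the PFC (0.11 ± 0.10), and since its CPM was lower in Astro in every library (590 to 643 against 622 to 866), scaling by library size alone gave -0.35 (FDR = 0.00735). In the striatum it was lower in Astro, 225 to 350 CPM against 475 to 684 (-0.76 ± 0.17, FDR = 0.000912), and without *Setd1a*+/- replicate 1 it was -0.51 and not called (FDR = 0.0611). *Grin2c* was the member called higher in PFC Astro, on 52 UMIs against 1 in OPC, a ratio of CPM of 103 with a counting interval of 17.6 to 4129. *Grin2b* was the member called higher in striatal Astro (1.68 ± 0.34, FDR = 0.000326). Of 4 neuronal markers tested there 1 was called higher in Astro (*Syt1*, 0.83 ± 0.33). Of 9 postsynaptic scaffold and partner genes 2 were called higher, among them *Camk2a* (1.59 ± 0.36), a kinase of excitatory synapses. Of the same genes 1 was called lower (*Shank1*, -3.32 ± 0.46). The part of neuronal RNA in the *Grin2b* value was not tested. *Gria1* differed by -0.10 ± 0.44 in the striatum. In the PFC 1 of 3 neuronal markers tested was called lower in Astro (*Meg3* at -2.50 ± 0.22), and its part in the member values there was not tested.

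In the striatum the members tested differed between D2 and D1 MSN by less than 1.5-fold. None of 7 members was called by edgeR or by DESeq2, and 6 had an unadjusted p under 0.05, as 22.6% of 10425 genes did. Of all genes 1.53% were called higher in D2 MSN and 2.95% lower. *Gria4* was 22.1, 15.8, 20.3 and 16.6 CPM in D2 MSN and 24.99, 24.2, 30.0 and 25.3 in D1 MSN. Of the members tested it was the one whose ranges did not overlap (-0.40 ± 0.14, FDR = 0.0364), under the fold threshold. *Gria3* (0.22 ± 0.07), *Gria2* (0.11 ± 0.03) and *Grin2b* (0.15 ± 0.04) passed the FDR with folds of 1.17, 1.08 and 1.11. Their CPM was higher in D2 MSN in 4, 2 and 3 of 4 libraries. *Gria1* (0.14 ± 0.05), *Grin2a* (-0.20 ± 0.08) and *Grin1* (-0.08 ± 0.07) did not. *Grin3a* had too few UMIs for the filter, at 0.646 to 2.50 CPM in D2 MSN and 3.304 to 7.35 in D1 MSN, without overlap. Without the filter it was called lower in D2 MSN (-1.85).

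Striatal IN against MSN gave 3 of 9 members higher (16.7% of 10650 genes) and 1 lower (14.2%). *Grin3a* was higher in IN by 3.42 ± 0.22, at 32.1 to 41.9 CPM against 2.37 to 5.35. *Gria4* was higher by 1.30 ± 0.14, at 46.8 to 75.4 CPM against 20.9 to 26.2. *Grin2d* was higher by 4.25 ± 0.50, on 32 UMIs in IN against 7 in MSN, a ratio of CPM of 22.5 with a counting interval of 9.74 to 60.3. *Grin2b* was lower in IN (-0.72 ± 0.06), in 4 of 4 libraries. *Gria2* was lower at a fold of 1.49 (-0.58 ± 0.04), just short of the threshold, which it passed with cells thinned (-0.65), without the filter (-0.65) and without either *Setd1a*+/- library (-0.60). *Grin1* differed by -0.32 ± 0.09 (FDR = 0.00584) and was called with cells thinned (-0.59), and *Gria1* (0.15 ± 0.06), *Gria3* (0.08 ± 0.08) and *Grin2a* (-0.17 ± 0.11) were not called.

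**Figure D4:**
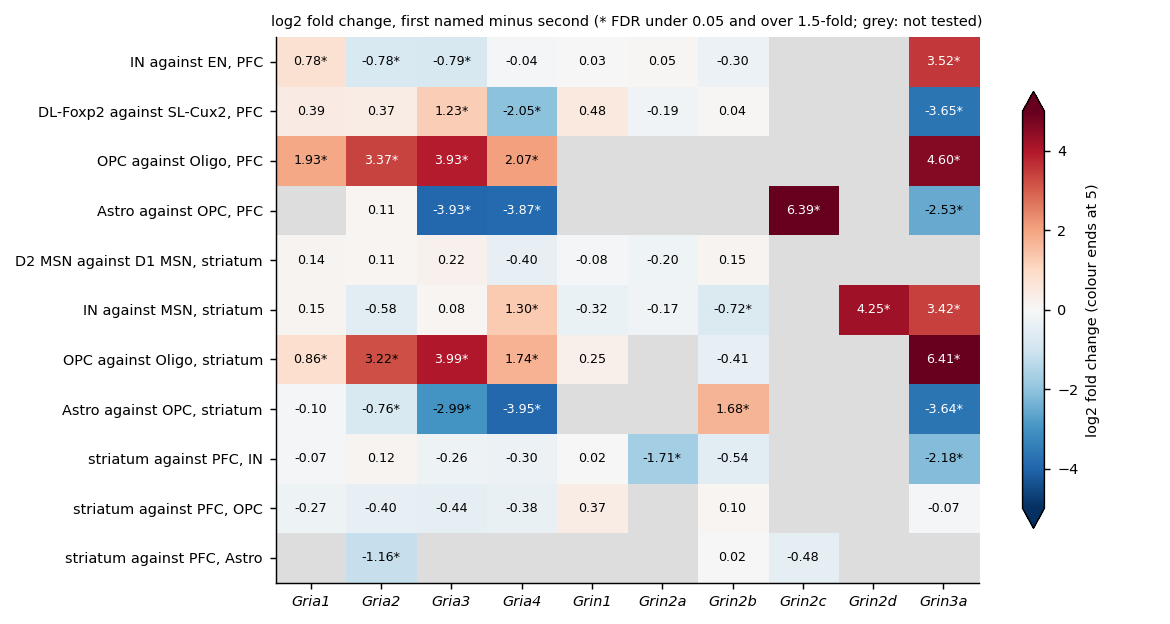
Heat map of the log2 fold change (colour scale, first named minus second) of each member (columns) in the 11 comparisons of cell types and tissues (rows). An asterisk marks a call at FDR under 0.05 and a fold above 1.5, and grey marks members not tested. OPC against Oligo holds higher calls among the members tested, and D2 against D1 MSN holds no call.

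The same cell type was then compared between striatum and PFC over all 8 libraries, with genotype as a covariate. The tissues were digested for different times, so tissue and dissociation cannot be told apart. In IN 2 of 8 members were called lower in the striatum and none higher (5.9% of 7419 genes in each direction). *Grin3a* was 41.7, 41.9, 39.4 and 32.1 CPM in the striatum against 117, 199, 213 and 185 in the PFC (-2.18 ± 0.21, FDR = 5.2e-06). *Grin2a* was 69.7, 65.8, 65.3 and 81.1 CPM against 317, 217, 199.7 and 218 (-1.71 ± 0.18, FDR = 1.21e-05). *Grin2b* differed by -0.54 ± 0.18 (FDR = 0.0692), and passed the threshold without PFC *Setd1a*+/- replicate 1 (-0.65) or striatal *Setd1a*+/- replicate 1 (-0.72). *Gria1*, *Gria2*, *Gria3*, *Gria4* and *Grin1* lay between -0.30 and 0.12, with SEs of 0.15 to 0.27. In Astro 1 of 3 members, *Gria2*, was called lower in the striatum (3.95% of 5090 genes) and none higher (6.46%), with a difference of -1.16 ± 0.21 and 225 to 350 CPM against 590 to 643. *Meg3*, the 1 called of 3 neuronal markers tested, was higher in striatal Astro by 3.16 ± 0.44, and its part was not tested. *Grin2b* (0.02 ± 0.45) and *Grin2c* (-0.48 ± 0.38) were not called. In OPC none of 7 members was called by edgeR or DESeq2, 2 had an unadjusted p under 0.05 (*Gria2* at -0.40 ± 0.17 and *Gria3* at -0.44 ± 0.19), where 13.8% of 7612 genes did, and 0.118% were called higher and 0.0394% lower.

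The study asked what loss of 1 *Setd1a* copy does in each cell type. Between genotypes no member was called in any cell type or subtype, by edgeR or by DESeq2. Libraries of 2 against 2 were compared within each type, and the types of a tissue share the same 4 libraries, so their tests are not independent of each other. In the PFC 8 types gave 32 member tests, of which 1 had an unadjusted p under 0.05 (1.7% of 51145 gene tests did, and 0% were called). In the striatum 10 types gave 53 member tests, 0 of them under 0.05 (2.62% of 73479 gene tests, 0.00544% called at the 2-fold threshold used there). In 6 EN subtypes, DL-Pou3f1 having too few cells, 46 member tests gave 2 under 0.05 (1.6% of 44783 gene tests, 0% called).

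In the PFC most estimates were below 0, and fewer were without *Setd1a*+/- replicate 1 or, in the cell types, without WT replicate 2. Of the 32 PFC tests 28 had a lower level in *Setd1a*+/- mice (49.8% of all gene tests were below 0), with a median of -0.26 against 0.00 over all gene tests, and 36 of 46 in the subtypes (50.3% of all gene tests), with a median of -0.12. Without *Setd1a*+/- replicate 1, the library with 241 low genes in EN, 19 of 35 PFC tests were lower (median -0.09) and 28 of 46 in the subtypes (-0.04). Without WT replicate 2 it was 20 of 32 PFC tests (-0.18). Ratios within replicates are log2 of *Setd1a*+/- over WT CPM of the same replicate number, with 1 CPM added to each level. Within replicate 1 the ratio was below 0 in 25 of 32 PFC tests, and within replicate 2 in 17. The 25 PFC tests of neuronal markers had a median of -0.09. In the striatum 27 of 53 were lower (49.6% of all gene tests), with a median of -0.03. DESeq2 gave 19 of 53 (median 0.10), and without striatal *Setd1a*+/- replicate 1 it was 22 of 60 (0.12). Within striatal replicate 1 the ratio was below 0 in 37 of 53 tests, and within replicate 2 in 19. The pair of *Setd1a*+/- libraries lay below the pair of WT libraries in 8 PFC tests (14.3% of all gene tests) and above in 0 (12%), in 15 subtype tests (13.5%) and above in 2 (13.2%), and in 5 striatal tests (18.1%) and above in 4 (12.9%). *Gria2* estimates in the 8 PFC types lay between -0.85 and -0.00, with SEs of at least 0.20, and in 7 of them the replicates did not share a direction. In EN, IN, Astro, OPC and NFO the log2 ratios were -0.48 to -0.00 in replicate 1 and 0.02 to 0.26 in replicate 2, and the order was the other way in Oligo (0.07 and -0.84) and Micro (1.55 and -1.98). In Endo, on 4 to 25 UMIs per library, both ratios were below 0 (-0.23 and -1.44).

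*Gria4* accounted for 2 of the 3 tests under 0.05. In PFC IN it was 100.02 and 95.6 CPM in WT and 48.8 and 56.3 in *Setd1a*+/- mice, on 17 to 48 UMIs per library, and the genotypes did not overlap (-0.89 ± 0.31, unadjusted p = 0.0197 and FDR = 1.00 by edgeR). Within replicates the log2 ratios were -1.02 and -0.75. In SL-Cux2 neurons it was 181 and 138 CPM in WT and 92.0 and 111 in *Setd1a*+/- mice (-0.61 ± 0.27, unadjusted p = 0.0469 and FDR = 1.00 by edgeR), with ratios of -0.97 and -0.31. The sign was the same in 5 of 5 PFC types and 6 of 6 subtypes, but not within each replicate. In each of these *Setd1a*+/- replicate 1 was the lowest library, and in EN the ratios were -0.99 in replicate 1 and 0.08 in replicate 2. Without *Setd1a*+/- replicate 1 the *Gria4* differences were -0.74 in IN and -0.44 in SL-Cux2. In the striatum 3 of 5 types had a higher level in *Setd1a*+/- mice, and the genotype effect on *Gria4* in IN differed between tissues by 1.03 ± 0.41 (unadjusted p = 0.0246 and FDR = 1.00 by edgeR). Without striatal *Setd1a*+/- replicate 2 that difference was 0.63.

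*Grin3a* in DL-Nnat neurons was the third test under 0.05, at 22.8 and 23.0 CPM in WT and 13.6 and 3.60 in *Setd1a*+/- mice, on 2 to 33 UMIs per library (-1.38 ± 0.57, unadjusted p = 0.0439 and FDR = 1.00 by edgeR). Within replicates the ratios were -0.71 and -2.38. Without *Setd1a*+/- replicate 2 the difference was -0.81, and without *Setd1a*+/- replicate 1 it was -2.61. *Grin3a* in the other subtypes tested lay between -0.08 and 0.21.

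*Grin1* had no test under 0.05, and in PFC EN and IN its differences were larger in replicate 1. In PFC EN the difference was -0.48 ± 0.48, with ratios of -1.19 in replicate 1 and -0.10 in replicate 2. In DL-Tshz2 neurons it was 135 and 105 CPM in WT and 20.8 and 106 in *Setd1a*+/- mice (-1.28 ± 0.59). With *Setd1a*+/- replicate 2 left out, so that replicate 1 stood alone for its genotype and was assumed to vary as WT does, *Grin1* was called lower in SL-Cux2 (-1.66, FDR = 0.00258) and DL-Tshz2 (-2.53, FDR = 0.00880). In striatal D1 MSN it was 117 and 117 CPM in WT and 107 and 104 in *Setd1a*+/- mice (-0.10 ± 0.14).

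**Figure D5:**
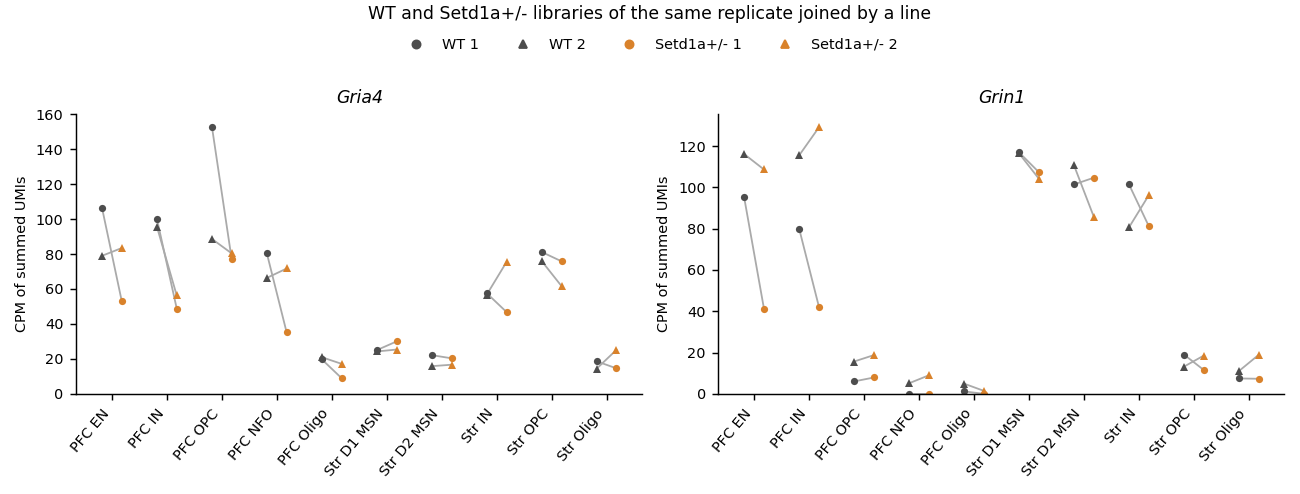
Levels (y axis, CPM) of *Gria4* and *Grin1* in WT and *Setd1a*+/- libraries of 10 cell types (x axis), with 1 point per library and lines joining libraries of the same replicate number. In PFC IN both *Gria4* lines fall, to 48.8 and 56.3 CPM, and in PFC EN and IN the lowest *Grin1* point belongs to *Setd1a*+/- replicate 1.

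Whether the genotype effect differed between groups of cells was tested as an interaction. For IN against EN none of 9 members was called (0.0267% of 11255 genes), and DESeq2 also called none. *Grin2a* gave -0.40 ± 0.18 (unadjusted p = 0.0326 and FDR = 0.904 by edgeR). Without PFC WT replicate 1, the library in which IN *Grin2a* was highest at 317 CPM, it was -0.23. For D2 against D1 MSN none of 8 was called or under 0.05 (0.0819% of 10989 genes). For striatum against PFC none of 9 was called in IN (0% of 8374 genes, with *Gria4* under 0.05 as above), none of 7 in OPC (0% of 8637) and none of 5 in Astro (0% of 6561), the latter without any member under 0.05. DESeq2 called no member in any of the 5 interactions.

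The proteins that carry and anchor these receptors were counted over lists chosen by name, with the share of all genes tested that was called beside each count. The AMPA auxiliary list held 12 genes, the scaffold list 16 and the list of other subunits 10. A listed gene can pass the filter on low counts through the type where it is high. The counts therefore describe the genes tested and not the whole lists. AMPA auxiliary subunits, which move the receptors and set how fast they close, were called in both directions between neuron classes. Of 11 tested in PFC IN against EN 4 were higher (11.2% of all genes), *Shisa6* (5.23 ± 0.40) and *Cacng5* (2.29 ± 0.48) most, and 4 lower (14.4%), *Cnih3* (-3.35 ± 0.27) and *Gsg1l* (-1.56 ± 0.35) most. In DL-Foxp2 against SL-Cux2, 2 of 7 were higher (8.9% of all genes; *Gsg1l* at 1.43 ± 0.22 and *Cnih2* at 0.66 ± 0.23) and 2 lower (10.4%; *Cnih3* at -1.71 ± 0.14 and *Cacng3* at -1.14 ± 0.12). In OPC against Oligo all 3 tested in the PFC (25.8% of all genes) and all 5 in the striatum (28.5%) were higher, led by *Cacng4* (6.55 ± 0.23 and 6.41 ± 0.17), with *Shisa9* (3.65 ± 0.39) next in the PFC and *Shisa7* (2.93 ± 0.31) in the striatum. In Astro against OPC 1 of 2 in the PFC (21.5% of all genes) and 2 of 3 in the striatum (20.9%) were lower, *Cacng4* at -5.05 ± 0.24 and -4.30 ± 0.21 and *Shisa7* at -2.75 ± 0.36 in the striatum. In D2 against D1 MSN 1 of 10 was called, *Cnih3*, which was lower (-1.07 ± 0.31; 2.95% of all genes). In striatal IN against MSN 4 of 11 were higher (16.7% of all genes; *Shisa6* at 4.53 ± 0.45 and *Cnih3* at 2.04 ± 0.21 most) and 4 lower (14.2%; *Cacng4* at -1.51 ± 0.16 and *Cacng3* at -1.04 ± 0.09 most). Between tissues in IN 2 of 8 were higher in the striatum (5.9% of all genes in each direction; *Cnih3* at 1.62 ± 0.41 and *Cnih2* at 1.56 ± 0.45) and 2 lower (*Shisa6* at -1.84 ± 0.34 and *Cacng2* at -0.96 ± 0.19), and 0 of 5 in OPC were called.

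Postsynaptic scaffold proteins and partners, which hold the receptors opposite the release site, were lower in PFC IN than EN for 7 of 15 genes (14.4% of all genes) and higher for 2 (11.2%). *Camk2a* (-2.01 ± 0.13) was the lowest, and *Grip1* (1.71 ± 0.19) and *Grip2* (1.21 ± 0.45), which bind the tails of GluA2 and GluA3, were the higher ones. In striatal IN against MSN 4 of 15 were higher (16.7% of all genes; *Dlgap1* at 2.07 ± 0.09 and *Shank1* at 1.77 ± 0.10 most) and 3 lower (14.2%; *Camk2b* at -1.17 ± 0.06 and *Homer1* at -0.73 ± 0.10 most). In OPC against Oligo 4 of 9 were higher and 3 lower in the PFC (25.8% and 24.2% of all genes) and 5 and 1 of 9 in the striatum (28.5% and 21.9%), *Dlgap1* being highest in both (3.37 ± 0.20 and 5.28 ± 0.23) and *Dlg1* lowest (-1.43 ± 0.29 and -1.38 ± 0.33). In DL-Foxp2 against SL-Cux2 1 of 14 was higher (8.9% of all genes; *Dlg4* at 0.63 ± 0.13) and 1 lower (10.4%; *Shank2* at -0.70 ± 0.16). In Astro against OPC 1 of 6 was higher in the PFC (21.2% of all genes; *Dlg4* at 0.89 ± 0.34) and 2 of 9 in the striatum (21.1%), with 1 lower there (20.9%; *Shank1* at -3.32 ± 0.46). In D2 against D1 MSN 1 of 14 was lower (2.95% of all genes; *Shank1* at -0.97 ± 0.13). Between striatum and PFC 5 of 13 were higher and 1 lower in IN (5.9% of all genes in each direction; *Camk2a* at 1.21 ± 0.25 and *Dlg2* at -0.75 ± 0.20), 0 of 8 were called in OPC, and 1 of 5 was higher in Astro (6.46%; *Camk2b* at 1.62 ± 0.49).

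Kainate and delta receptor subunits and their partners *Neto1* and *Neto2* were the other glutamate receptor genes listed. *Grik1*, a kainate receptor subunit, was higher in IN than in EN by 3.94 ± 0.21 and than in MSN by 4.18 ± 0.44. In IN against EN 4 of 8 were higher (11.2% of all genes), *Neto2* next (1.49 ± 0.15), and 1 lower (14.4%; *Grid1* at -1.10 ± 0.35). In striatal IN against MSN 3 of 9 were higher (16.7% of all genes) and 4 lower (14.2%; *Grik2* at -1.27 ± 0.14 most). *Grik3* was higher in DL-Foxp2 than in SL-Cux2 by 4.67 ± 0.25, where 4 of 7 were higher (8.9% of all genes) and 0 lower (10.4%), and it was the gene called of 7 in D2 against D1 MSN (3.00 ± 0.17; 1.53% of all genes were called higher). In OPC against Oligo all 5 tested in the PFC (25.8% of all genes) and all 4 tested in the striatum (28.5%) were higher, *Grid1* most (4.63 ± 0.50 and 4.43 ± 0.47). In Astro against OPC 1 of 2 in the PFC (21.5% of all genes) and 3 of 4 in the striatum (20.9%) were lower, *Neto2* most (-2.96 ± 0.55 and -1.83 ± 0.39). Between striatum and PFC 3 of 7 were lower in IN (5.9% of all genes), *Grik1* (-2.92 ± 0.23) and *Grik2* (-1.37 ± 0.23) most, and 0 of 5 in OPC and 0 of 1 in Astro were called.

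Between genotypes no gene of these lists was called by edgeR or DESeq2. The AMPA auxiliary list gave 21 tests in PFC types, 47 in striatal types and 40 in subtypes, with 0, 3 and 0 under an unadjusted p of 0.05, where 1.7%, 2.62% and 1.6% of all gene tests were. The scaffold list gave 55, 85 and 79 tests, with 0, 1 and 0, and the list of other subunits 24, 39 and 32 tests, with 1, 1 and 0.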

How the data were processed

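The members and gene lists were chosen with earlier results of these data known. The authors counted UMIs per gene and droplet barcode with Cell Ranger 3.0.2 and annotated cells in Seurat 3.2.0 (versions and the mm10 build per the submitters' processing notes), and the deposited count matrices are raw. Their cell tables give the library, type and subtype of each cell kept. Expression tables were left out, since row numbers stand there in place of gene names. Doublets were not treated here. Annotated cells were looked up in the matrices (Python 3.11.15, pandas 2.3.3, numpy 2.4.6, scipy 1.17.1) and counts summed per library and type. Genotype tests needed at least 10 cells of a type in every library, while levels are given for all types.

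Sums were tested with edgeR 4.0.16 (quasi-likelihood test, TMM, filterByExpr with a minimum count of 10) in R 4.3.3, and p values were adjusted over all genes tested (Benjamini-Hochberg). A call needed an FDR under 0.05 and a fold above 1.5, or above 2 for genotype in the striatum. Alternatives were library size scaling, DESeq2 1.42.0, no filter, cells thinned to 1000 UMIs, each library left out, no library block and a replicate block. Every member was described. Between genotypes members at an unadjusted p under 0.05 were named, and of other lists the 2 called genes of largest change in each direction; *Grin1* between genotypes was named after its values were seen. Some genes that these rules or the ranking of similar patterns would name are not reported here. The fits were checked on simulated counts.

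Libraries held 5999666 to 13521114 UMIs in annotated cells, and a level of few UMIs is imprecise. Counting intervals are exact, at 95%, and cover counting error only. By the methods a biological replicate held 1 WT and 1 mutant sample, so equal replicate numbers pair libraries. Differences between replicates 1 and 2 were correlated across genes between genotypes, with r of 0.116 to 0.664 over 8 PFC types, 0.101 to 0.465 over 10 striatal types and 0.391 to 0.519 over 6 subtypes. Nothing states that libraries of a group came from separate litters, so p values measure the spread between libraries, each of 2 mice.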

Additional observations from a re-analysis of the deposited data

Results flagged for a closer look

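Of the levels, 4 values stood apart from the other 3 libraries of their tissue and cell type, with a gap to the nearest library, as a share of the whole range, above Dixon's 95% critical value. In all 60 groups of 4 libraries with at least 10 UMIs in each were examined, and chance flags about 1 in 20. Each group mixes 2 WT and 2 *Setd1a*+/- libraries. *Grin2a* in PFC IN was at 317 CPM in WT replicate 1, against 199.7 to 218 in the others. *Gria4* in PFC OPC was at 153 CPM in WT replicate 1, against 77.0 to 88.7. *Gria2* in PFC Oligo was at 77.6 CPM in WT replicate 2, against 41.2 to 43.3. *Grin2a* in striatal D2 MSN was at 85.2 CPM in *Setd1a*+/- replicate 1, against 61.8 to 65.2.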

How the results depend on the processing

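The number of members called stayed within 1.5 times the reported one for 191 of 193 alternatives. The exceptions were D2 against D1 MSN without the filter, with 1 call, and EN subtypes between genotypes, where leaving out a library gave 0 to 2 calls, the 2 being *Grin1* without PFC *Setd1a*+/- replicate 2. Of 714 single fold changes in contrasts, 666 kept their direction and side of the threshold, 8 passed it anew, 7 no longer passed it and 33 changed sign. The cause was not tested. With the replicate number as a block no call of a member between genotypes was gained (0 calls in PFC types, striatal types and subtypes), and *Gria4* in PFC IN was at -0.88 (FDR = 0.737). In the tissue comparisons the block called 2 members in IN, 0 in OPC and 1 in Astro, as without it.

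The values that changed sign were not called. In IN against EN, thinned cells gave *Gria4* 0.25 and *Grin1* -0.022, and no filter gave *Grin1* -0.070 and *Grin2a* -0.044. Thinning gave *Grin2b* -0.18 in DL-Foxp2 against SL-Cux2. In Astro against OPC, library size alone gave PFC *Gria2* -0.35, no filter gave it -0.029, and DESeq2 gave striatal *Gria1* 0.18. Library size alone gave *Grin2b* 0.11 in striatal OPC against Oligo. Between tissues in IN, no filter gave *Gria1* 0.000221, and thinning gave *Gria1* 0.29, *Gria3* 0.015 and *Grin1* -0.24, and in OPC thinning gave *Grin3a* 0.041. With each library left out in turn, IN against EN ranged from -0.21 to 0.056 for *Gria4*, -0.073 to 0.095 for *Grin1* and -0.060 to 0.12 for *Grin2a*, and striatal IN against MSN from -0.0071 to 0.11 for *Gria3*. Striatal Astro against OPC ranged from -0.35 to 0.58 for *Gria1*. Between tissues the ranges were -0.015 to 0.19 for *Gria2* and -0.27 to 0.27 for *Grin1* in IN, -0.32 to 0.87 for *Grin2b* and -0.19 to 0.025 for *Grin3a* in OPC, and -0.20 to 0.51 for *Grin2b* in Astro.

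Of the 11 comparisons of cell types and tissues, too few UMIs kept *Grin2d* out of 10, *Grin2c* out of 9, *Grin2a* out of 6 and *Grin1* out of 4. Thinning moved the share of cells with a UMI by more than its counting interval in 153 of 180 cases.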

Other observations

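The neuronal markers *Meg3*, *Snap25*, *Syt1* and *Rbfox3* gave 25 genotype tests in PFC types, 38 in striatal types and 24 in EN subtypes. None was called by edgeR or DESeq2, and 1, 3 and 0 had an unadjusted p under 0.05. Their median log2 differences were -0.09, -0.19 and -0.03, against 0.00 over all gene tests. In PFC OPC against Oligo *Meg3* was higher by 1.88 ± 0.18, and in striatal OPC against Oligo by 1.25 ± 0.16. In droplets with at most 100 UMIs *Gria2* was at 373 to 494 CPM in the PFC and 462 to 526 in the striatum, *Grin2c* at 2.85 to 6.89 and 3.84 to 7.12, and *Grin3a* at 10.7 to 14.6 and 5.82 to 9.20. There *Gria4* was at 21.6 to 37.7 and 18.3 to 27.1 CPM, *Grin2a* at 71.9 to 101 and 33.8 to 41.2, *Grin2b* at 89.9 to 149 and 105 to 118, and *Grin2d* at 0.383 to 1.49 and 1.48 to 2.88.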
